A study of Mus musculus with 6 samples.

Results

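Of the 451 mouse miRNAs listed in this small RNA profile, 111 carried a miRBase number of 1000 or more and were taken as the late-numbered miRNAs. They were chosen by name alone, with mmu-miR-5099 and mmu-miR-6240 set aside, and were compared with the 338 rows numbered below 1000, which include the let-7 family. Small RNA was sequenced from T cell blasts and from the small extracellular vesicles (EVs, called exosomes in the sample titles) that the same kind of culture secreted, with 3 libraries per group, numbered 1, 2 and 5 in both. Total splenocytes of WT C57BL/6 mice aged 8 to 12 weeks were depleted of erythrocytes, activated with 2 µg/ml concanavalin A, washed after 36 h, and expanded in medium with vesicle-depleted serum and 50 U/ml IL-2. EVs were collected from 6-day supernatants by serial ultracentrifugation ending at 100000 g. Both groups thus came from unmodified mice and shared every step up to the separation of cells from supernatant. The blasts were described as T cells by culture and were not listed as sorted, and the small EVs were pellets that can hold particles from any cell of the culture or from the medium.

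A miRNA is cut from a hairpin precursor by Drosha and Dicer, and either arm of the hairpin (5p or 3p) can be loaded into an Argonaute protein, where the seed at bases 2 to 8 pairs with target mRNAs. miRBase gives numbers in order of registration, so late numbers mostly belong to sequences first seen by deep sequencing, many of them known in few species. Some of these come from other RNA genes or elements, such as small nucleolar RNAs (snoRNAs), Cajal body RNAs (scaRNAs), SINE repeats, or short introns that fold into a hairpin after splicing (mirtrons).

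The first sequences are those of the abundant members and of the members with the clearest group differences, with the seed in capitals. They are mature sequences from RefSeq on GRCm38.p6, read 5′ to 3′.
mmu-miR-1839-5p: aAGGUAGAuagaacaggucuug
mmu-miR-3535: uGGAUAUGaugacugauuaccugaga
mmu-miR-1843a-5p: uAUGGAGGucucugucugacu
mmu-miR-1843b-5p: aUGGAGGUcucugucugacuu
mmu-miR-5121: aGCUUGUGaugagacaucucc
mmu-miR-3068-3p: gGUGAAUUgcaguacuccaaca
mmu-miR-6516-3p: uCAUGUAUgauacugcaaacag
mmu-miR-1198-5p: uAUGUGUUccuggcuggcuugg
mmu-miR-3074-5p: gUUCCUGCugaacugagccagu
mmu-miR-3470b: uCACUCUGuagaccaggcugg
mmu-miR-5100: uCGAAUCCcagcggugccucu
mmu-miR-3062-5p: gGAGAAUGuaguguuaccguga
mmu-miR-1983: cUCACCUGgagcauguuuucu

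The top 7 of these lie inside genes annotated as small RNAs of other classes. For mmu-miR-1839-5p (Mir1839), mmu-miR-3535 (Gm24148) and mmu-miR-3068-3p (Mir3068), that gene has the same symbol as the miRNA gene. These may thus be the miRNA gene itself under another class. mmu-miR-1839-5p (chr7:81529919-81529940, plus strand) is in a scaRNA gene inside 2900076A07Rik. mmu-miR-3535 (chr1:86352062-86352087, minus strand) is in a snoRNA gene inside Ncl, which encodes nucleolin. mmu-miR-1843a-5p (chr12:80391654-80391674, minus strand) and mmu-miR-1843b-5p (chr1:159340362-159340382, plus strand) are in Scarna3b and Scarna3a. They share 20 bases, so reads of one may have been counted for the other. mmu-miR-5121 (chr7:45126925-45126945, minus strand) is in Snord33, inside the ribosomal protein gene Rpl13a. mmu-miR-3068-3p (chr12:87437685-87437706, minus strand) is inside Alkbh1 in a gene annotated as a snoRNA, and mmu-miR-6516-3p (chr11:117077412-117077433, plus strand) is in a scaRNA gene inside the snoRNA host gene Snhg20.

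The other 6 lie elsewhere. mmu-miR-1198-5p (chrX:7807142-7807163, plus strand) is in an intron of Gripap1, mmu-miR-5100 (chr11:60728698-60728718, plus strand) in an intron of Mief2, and mmu-miR-3062-5p (chr11:68990638-68990659, minus strand) in an intron of Pfas. mmu-miR-3074-5p lies opposite the miR-24 hairpins at 2 loci, chr13:63301249-63301270 and chr8:84208873-84208894, both on the minus strand. Its first 20 bases are the reverse complement of mmu-miR-24-3p. No gene was annotated on the strand of mmu-miR-1983 (chr13:21896930-21896950, minus strand) or of mmu-miR-3470b (chr16:44013885-44013905, plus strand), which lies opposite Gramd1c. Nuclear transfer RNA (tRNA) genes were not among the small RNA classes searched. The whole mmu-miR-3470b sequence occurs on either strand of 1016 annotated genes, as is known of B1 SINE repeats.

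The second set shows a stretch that mmu-miR-3473b, the most abundant member, shares with other members. The capitals mark the shared bases, which in mmu-miR-7667-5p are the reverse complement.
mmu-miR-3473b: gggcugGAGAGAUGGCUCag
mmu-miR-7667-5p: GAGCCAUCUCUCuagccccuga
mmu-miR-5128: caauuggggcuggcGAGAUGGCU

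The mmu-miR-3473b sequence was placed at chr10:41670774-41670793 (plus strand), with no gene on its strand and Ccdc162 on the opposite strand, but exact copies lay in 725 genes on either strand. It equals the start of the B2 SINE, a repeat transcribed by RNA polymerase III. Among the 274 lower-numbered rows with a sequence, only mmu-miR-706 had exact copies in 100 or more genes. mmu-miR-7667-5p (chr17:29595538-29595559, plus strand) and mmu-miR-5128 (chr2:37688212-37688234, minus strand) lie in introns of Tbc1d22b and Strbp. The shared stretch was 12 bases for mmu-miR-7667-5p and 9 bases for mmu-miR-5128.

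The third set shows 3p arms that end within 2 bases of the 3′ end of an annotated intron, with the final AG of the arm in capitals. Whether it is also the final AG of the intron was not checked. The arms mmu-miR-7068-3p and mmu-miR-1982-3p also overlap an annotated exon.
mmu-miR-7015-3p: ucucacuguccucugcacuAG
mmu-miR-6989-3p: uguccacugucucuggucccAG
mmu-miR-7068-3p: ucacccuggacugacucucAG
mmu-miR-6899-3p: uuguccuucugugucuucugcAG
mmu-miR-6988-3p: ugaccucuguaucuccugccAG
mmu-miR-1982-3p: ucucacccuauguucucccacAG

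These introns belong to Smap2 (chr4:120973259-120973279, minus strand), Map4k2 (chr19:6346523-6346544, plus strand), Cherp (chr8:72470016-72470036, minus strand), Klf7 (chr1:64042438-64042460, minus strand), Syvn1 (chr19:6051371-6051392, plus strand) and Oaz1 (chr10:80828848-80828870, plus strand), in that order. Such arms are typical of mirtrons, whose ends are set by the spliceosome.

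Across the members, such locations were more common than in the lower-numbered rows. A RefSeq sequence was matched for 95 of 111 members and 274 of 338 lower-numbered rows. Of these, 16 members (16.8%) ended within 2 bases of an annotated splice acceptor, against 2 lower-numbered miRNAs (0.730%), and 13 of the 16 ended in AG. A further 13 members (13.7%) lay in an annotated small RNA gene, against 4 (1.46%), with nuclear tRNA genes not searched. For mmu-miR-1839-5p, mmu-miR-3535 and both mmu-miR-3068 arms, this gene has the symbol of the miRNA gene. Median length was 22 bases in both sets, while 11 members (11.6%) and 16 lower-numbered miRNAs (5.84%) had 24 or more bases. Median GC content was 54.5% for members and 47.6% for lower-numbered miRNAs. The 95 members held 95 different seeds, and the only seed also found in a lower-numbered row was CACUGAG, shared by mmu-miR-3473d and mmu-miR-674-5p. These shares describe the listed rows and were not tested.

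The libraries listed 236432 to 279737 reads in blasts and 261393 to 463498 reads in EVs. The deposited values are normalized CPM, that is read counts scaled to a common library size, in which 1 read was worth 3.67 to 4.79 CPM in blasts and 2.09 to 3.47 CPM in EVs. All listed miRNAs had been required to reach 1 CPM in at least 3 of the 6 libraries, so that each has a read in 3 or more. The lymphocyte miRNAs miR-142a, miR-150, miR-155, miR-181a and miR-342 were all present, and their summed level was 87285 to 108969 CPM in blasts and 68053 to 92369 CPM in EVs (3 of 6 rows higher, 2 lower in EVs). Of 5 red cell miRNAs, all were called higher in EVs (summed level 246 to 258 CPM in blasts, 1215 to 1861 CPM in EVs), with mmu-miR-451a and both miR-144 arms at 0 in blasts. Of 9 listed stromal and endothelial miRNAs, all were called higher in EVs (232 to 306 CPM in blasts, 3194 to 5729 CPM in EVs), and mmu-miR-145a-3p, mmu-miR-199a-3p, mmu-miR-199b-3p and mmu-miR-125b-5p were at 0 in blasts. Of 5 listed epithelial miRNAs, 1 was called higher and none lower (318 to 348 and 410 to 438 CPM), and mmu-miR-122-5p of liver was not listed. The part of other cells or of serum in the differences below was not tested, and less of a miRNA per cell or per vesicle cannot be told apart from fewer cells or vesicles that hold it.

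The late-numbered miRNAs were rare. Their median level over the 6 libraries was 4.12 CPM, against 40.4 CPM for rows numbered below 1000, and their highest member, mmu-miR-3473b, reached a mean of 805 CPM and rank 69 of all listed miRNAs. Mature miRNAs differ little in length, so that these CPM levels were compared without a length correction. All 111 members together held 6985 of 1950370 listed reads, and rows numbered below 1000 held 1797273. The rest fell on the 2 rows set aside, which thus held far more reads than all members. In blasts, members held 2921 and lower-numbered rows 683751 of 791877 reads. In EVs they held 4064 and 1113522 of 1158493. The 5 most abundant members (mmu-miR-3473b, mmu-miR-1839-5p, mmu-miR-3074-5p, mmu-miR-3535 and mmu-miR-1198-5p) held 60.8% of the member reads, and the 22 members with at least 50 reads held 86.5%. Conversely, 60 members had under 10 reads over all 6 libraries, as did 58 of 338 lower-numbered rows.

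**Figure D1:**
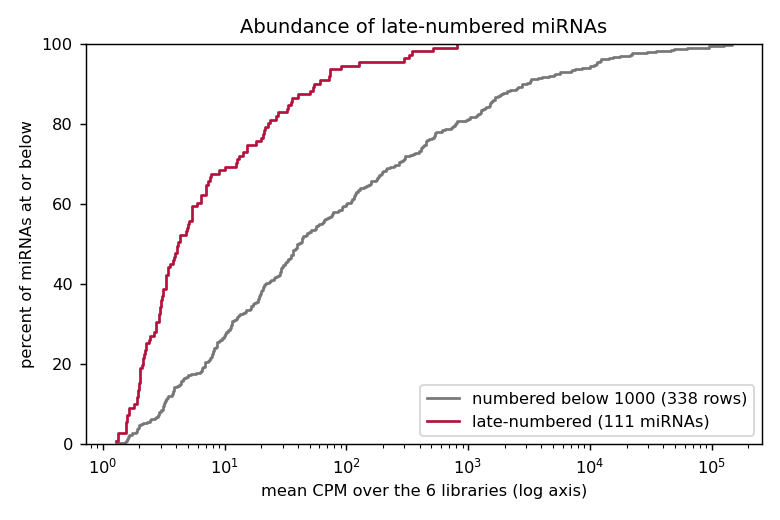
Cumulative percent of miRNAs (vertical axis) at or below each mean level over the 6 libraries (horizontal axis, CPM, log scale) for the 111 late-numbered miRNAs and the 338 rows numbered below 1000. The late-numbered curve lies to the left along its whole length, with medians of 4.12 and 40.4 CPM.

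Detection was patchy. Only 38 members had reads in all 6 libraries, compared with 243 of 338 lower-numbered rows, and 34 members had reads in exactly 3, the fewest the filter allows. At like read numbers the 2 sets were similar. With under 10 reads, 55.0% of 60 members and 55.2% of 58 lower-numbered rows had reads in exactly 3 libraries. With at least 50 reads, 100% of 22 members and 96.9% of 196 lower-numbered rows had reads in all 6. Members with a read numbered 84, 75 and 73 in blasts 1, 2 and 5 and 95, 85 and 87 in EVs 1, 2 and 5. The 3 EV libraries thus all detected more members than the 3 blast libraries (difference 11.7, exact two-sided permutation test, p = 0.1, the smallest this design allows). When each library was brought to the 236432 reads of the shallowest, the expected numbers were 79.0, 70.5 and 73.0 in blasts and 78.0, 68.7 and 83.4 in EVs, and the groups overlapped (difference 2.54, exact p = 0.7). Rows numbered below 1000 with a read numbered 286 to 295 in blasts and 307 to 323 in EVs. At equal depth they numbered 286 to 289.9 in blasts and 298.0 to 304.2 in EVs, so that, unlike the members, they still did not overlap. Order within the members was also less repeatable, with Spearman correlations of 0.62 to 0.71 between blast libraries and 0.71 to 0.78 between EV libraries, against 0.93 to 0.96 and 0.95 to 0.97 for the lower-numbered rows. These are correlations across miRNAs of one library pair, given as a description. They were not compared at like read numbers.

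The members, without the 2 rows set aside, took a small share of the listed signal in cells and vesicles alike. It was 0.355%, 0.330% and 0.432% in blasts 1, 2 and 5 and 0.319%, 0.337% and 0.431% in EVs 1, 2 and 5, with overlapping groups (exact permutation test, p = 0.7). The overlap was lost without mmu-miR-3473b. The other 110 members held 0.269%, 0.259% and 0.242% in blasts and 0.287%, 0.298% and 0.388% in EVs. All EV libraries then lay above all blast libraries (exact permutation test, p = 0.1, the smallest possible). These shares count mmu-miR-5099 in the total. With it out of the total, the members including mmu-miR-3473b held 0.405%, 0.384% and 0.498% in blasts and 0.331%, 0.351% and 0.439% in EVs. This raised every blast share more than any EV share. The separation without mmu-miR-3473b was thus not shown to hold on that total.

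**Figure D2:**
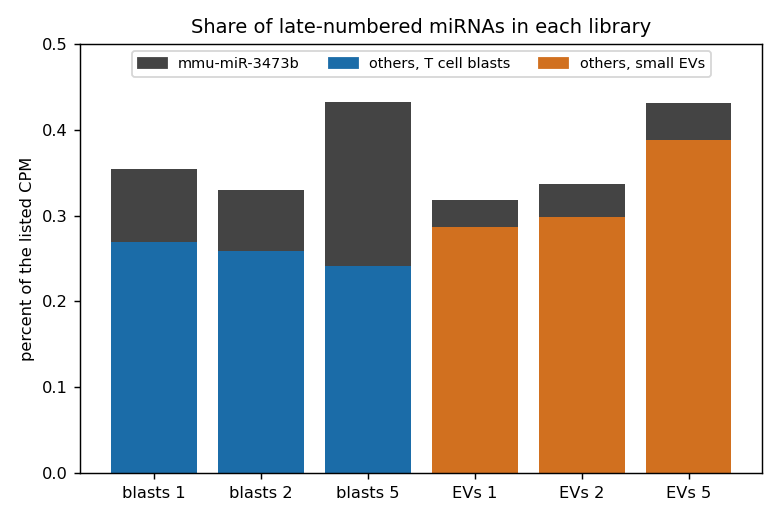
Percent of the listed CPM (vertical axis, from 0) held by the 111 late-numbered miRNAs in each of the 6 libraries, split into mmu-miR-3473b (dark) and the other members (blue for T cell blasts, orange for small EVs). The totals run from 0.319% to 0.432%, and the dark segment is largest in blasts 5.

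Levels in EVs were then compared with those in blasts over all listed miRNAs with limma on log2(CPM + 1), with p-values adjusted by Benjamini-Hochberg over all 451 rows and called below 0.2, the threshold in the methods of the study. Fold changes on this scale understate the change of rare miRNAs. Of the 111 members, 19 were higher in EVs (17.1%), 9 were lower (8.11%) and 83 did not pass. Over all listed miRNAs, 21.1% were called higher and 12.4% lower, and among rows numbered below 1000 the shares were 22.2% and 13.6%. The members' median log2 difference was 0.09, beside 0.02 over all listed miRNAs. EV libraries lay wholly above blasts for 14 members and wholly below for 11, against 20.4% and 14.4% of all listed miRNAs. At an adjusted p under 0.05, 7 members were higher and 6 lower, against 12.9% and 6.43% of all listed miRNAs. Among the 7, mmu-miR-3062-5p, mmu-miR-5120, mmu-miR-7682-3p, mmu-miR-1195 and mmu-miR-6988-3p had no read in blasts. Among the 6, mmu-miR-5128, mmu-miR-6769b-3p and mmu-miR-7667-3p had no read in EVs. The filter on 3 libraries fixed the direction of these calls, so they are no result about these members. Among miRNAs with at least 50 reads, 5 of 22 members were higher and 4 lower (22.7% and 18.2%), beside 26.0% and 16.8% of 196 lower-numbered rows. Among those with under 10 reads, 8 of 60 members were higher and 4 lower (13.3% and 6.67%), beside 15.5% and 8.62% of 58 lower-numbered rows. edgeR on the recovered reads called 12 members higher and 9 lower at the same threshold, against 18.2% and 14.2% of all listed miRNAs. DESeq2 called 6 and 4 members, against 14.2% and 9.09%. Leaving out blasts 2, EVs 2 or EVs 5 reduced the members called higher to 11, 12 and 11, and all listed miRNAs called higher from 95 to 81, 77 and 81. Only 7 of the 28 called members kept the call in every alternative in which they were fitted. These were mmu-miR-3470b, mmu-miR-5100 and mmu-miR-6516-3p, which were higher, mmu-miR-3473b, mmu-miR-3068-3p and mmu-miR-6539, which were lower, and mmu-miR-3062-5p, which had no read in blasts and whose direction the filter fixed.

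**Figure D3:**
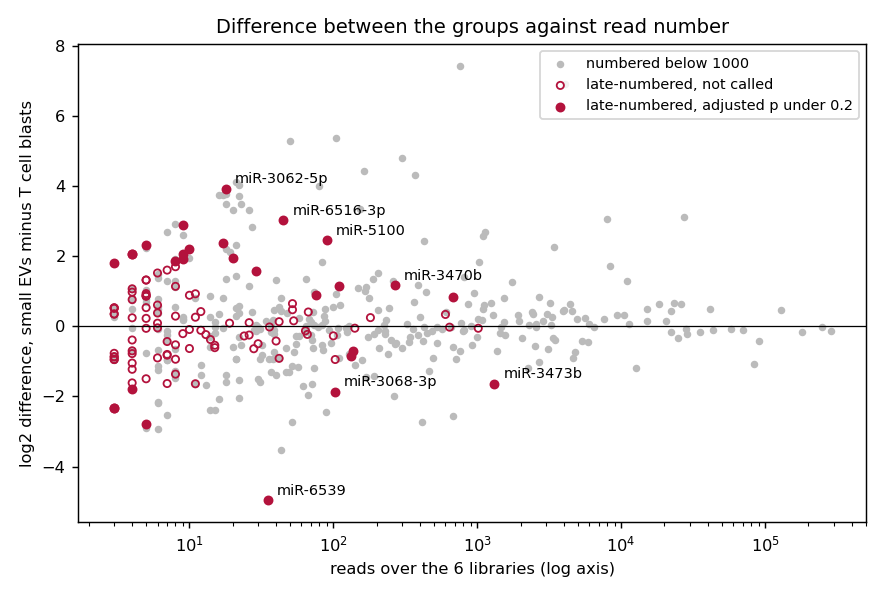
Log2 difference between small EVs and T cell blasts (vertical axis, limma on log2(CPM + 1)) against reads summed over the 6 libraries (horizontal axis, log scale) for 111 late-numbered miRNAs (red; filled where the adjusted p was under 0.2) and rows numbered below 1000 (grey). The 7 labelled members kept their call in every alternative fitted (for mmu-miR-3062-5p, with no read in blasts, the filter fixed the direction), and called members with few reads sit at the left edge on both sides.

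Among the members that were lower in EVs, mmu-miR-3473b had the most reads. It measured 880, 722 and 2154 CPM in blasts and 312, 367 and 396 CPM in EVs. The groups did not overlap, and blasts 5 stood well above the other 2 blast libraries. The mean fell from 1252 ± 785 to 358 ± 43 CPM (SD, n = 3), a log2 difference of -1.64 (SE 0.38, limma adjusted p = 0.024). Without blasts 5 the difference was -1.16 (limma adjusted p = 0.011). mmu-miR-3473d, which lies in an intron of Ddx19b, had 27, 26 and 17 reads in blasts and 29, 18 and 16 reads in EVs, where 1 read was worth fewer CPM. Its mean fell from 92.6 ± 10.2 to 51.9 ± 11.2 CPM (SD, n = 3), again with no overlap. Its log2 difference was -0.84 (SE 0.27, limma adjusted p = 0.064), and it no longer passed without EVs 2 (-0.66, limma adjusted p = 0.202).

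mmu-miR-3068-3p, the major arm of a hairpin in a snoRNA-annotated gene, measured 89.9, 110 and 86.1 CPM in blasts and 27.2, 15.3 and 38.2 CPM in EVs. Every EV library was under the lowest blast library. The log2 difference was -1.87 (SE 0.38, limma adjusted p = 0.014). mmu-miR-6539 showed the largest fall of the members with at least 20 CPM in either group. It had 12, 14 and 8 reads in blasts and 1, 0 and 0 reads in EVs, although EVs 1 and 2 had more reads than any blast library. The ratio of EVs to blasts in pooled normalized CPM was 0.0180, with a 95% exact interval from 0.000443 to 0.107 that covers counting error only. The log2 difference was -4.97 (SE 0.64, limma adjusted p = 0.0020). mmu-miR-1843a-5p measured 86.2, 99.0 and 86.1 CPM in blasts and 64.9, 37.1 and 69.4 CPM in EVs. It fell by 0.70 on the log2 scale (SE 0.30, limma adjusted p = 0.168), but lost the call without any one of the libraries other than EVs 5, with an adjusted p of up to 0.395.

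Both members on the chosen list of B1 repeat miRNAs were higher in EVs. mmu-miR-3470b measured 97.4, 69.7 and 67.0 CPM in blasts and 149, 153 and 233 CPM in EVs, with no overlap and the highest value in EVs 5. The log2 difference was 1.17 (SE 0.27, limma adjusted p = 0.022). mmu-miR-3470a rose from 48.7, 18.3 and 33.5 CPM to 52.4, 61.2 and 108 CPM. Its log2 difference was 1.15 (SE 0.45, limma adjusted p = 0.121), and the call was lost without blasts 2 (0.78, adjusted p = 0.302), EVs 2 (1.25, 0.218) or EVs 5 (0.84, 0.330). The 2 repeat-like members with the most copies, mmu-miR-3470b and mmu-miR-3473b, thus differed between the groups in opposite directions. Reads of such sequences may come from any copy.

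mmu-miR-5100 and mmu-miR-6516-3p showed the largest increases among members with at least 20 CPM in the higher group. mmu-miR-5100 measured 11.2, 3.67 and 28.7 CPM in blasts and 48.2, 80.8 and 69.4 CPM in EVs. The groups were well apart, with 10 reads in blasts and 80 in EVs, and the log2 difference was 2.46 (SE 0.66, limma adjusted p = 0.039). It was 1.78 without blasts 2 and 3.12 without blasts 5, with the call kept. mmu-miR-6516-3p had 3, 0 and 1 reads in blasts and 9, 20 and 12 reads in EVs, or 5.34 ± 5.64 against 34.7 ± 13.8 CPM (SD, n = 3). Its log2 difference was 3.02 (SE 0.94, limma adjusted p = 0.058) and was 2.00 without blasts 2, the blast library with no read, and 3.80 without blasts 1. mmu-miR-1983 measured 30.0, 25.7 and 19.1 CPM in blasts and 35.6, 56.8 and 48.6 CPM in EVs. All EV libraries were higher, with a log2 difference of 0.89 (SE 0.35, limma adjusted p = 0.128), but the call was lost without blasts 2, blasts 5, EVs 2 or EVs 5 (0.72 to 0.92, adjusted p of up to 0.365).

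mmu-miR-3062-5p was the only member with no read in blasts and at least 3 reads in every EV library. It had 9, 5 and 4 reads in EVs 1, 2 and 5, or 18.9, 10.9 and 13.9 CPM. Against the floor of 3 reads over the blast group (4.01 CPM) it was at least 3.67-fold higher in EVs. A miRNA with no read in blasts is listed only if all 3 EV libraries have one, so its direction was fixed by the filter and its call is no result about it.

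mmu-miR-3074-5p was also called higher, but its groups overlapped. It measured 191, 220 and 297 CPM in blasts and 295, 308 and 764 CPM in EVs, and EVs 5 lay far above the other libraries. The log2 difference was 0.82 (SE 0.38, limma adjusted p = 0.191), it was 0.38 without EVs 5 (adjusted p = 0.348), and the call was also lost without blasts 1 (0.68, 0.370) or blasts 2 (0.79, 0.360). mmu-miR-24-3p, whose sequence is complementary to it, measured 1319, 1496 and 2216 CPM in blasts and 871, 957 and 1590 CPM in EVs and was not called (log2 difference -0.57, limma adjusted p = 0.220). At each replicate number mmu-miR-3074-5p was higher and mmu-miR-24-3p lower in EVs. With the replicate number as a block both passed (limma adjusted p = 0.019 and 0.014), though only number 5 stood apart as a pair. Whether reads were aligned to one strand of the mature sequences is not given in the sources used here.

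No difference passed the test for the other abundant members. mmu-miR-1839-5p was the steadiest, at 554, 495 and 531 CPM in blasts and 530, 491 and 500 CPM in EVs, with a log2 difference of -0.05 (SE 0.14, limma adjusted p = 0.842). mmu-miR-3535 measured 352, 392 and 244 CPM in blasts and 224, 382 and 375 CPM in EVs (log2 difference -0.02, SE 0.28). mmu-miR-1198-5p measured 243, 297 and 249 CPM in blasts and 341, 299 and 358 CPM in EVs, so that every EV library was above every blast library. Its log2 difference of 0.34 (SE 0.17) did not pass (limma adjusted p = 0.225) as deposited and passed at 0.51 (adjusted p = 0.088) once libraries were rescaled to equal sums. mmu-miR-5114, in an exon of the desaturase gene Scd2, measured 89.9, 73.3 and 86.1 CPM in blasts and 85.9, 100 and 111 CPM in EVs (log2 difference 0.25, SE 0.22). mmu-miR-1843b-5p measured 59.9, 62.3 and 105 CPM in blasts and 67.0, 72.1 and 72.9 CPM in EVs (log2 difference -0.05, SE 0.29). mmu-miR-5121 varied most, at 33.7, 47.7 and 76.6 CPM in blasts and 41.9, 78.6 and 20.8 CPM in EVs (log2 difference -0.27, SE 0.53). mmu-miR-1964-3p, in an intron of Zfp84, measured 97.4, 51.3 and 62.2 CPM in blasts and 60.7, 32.8 and 20.8 CPM in EVs. It was lower in EVs at each replicate number, with a log2 difference of -0.95 (SE 0.45) that missed the threshold without a replicate block (limma adjusted p = 0.206) and passed with one (0.076).

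**Figure D4:**
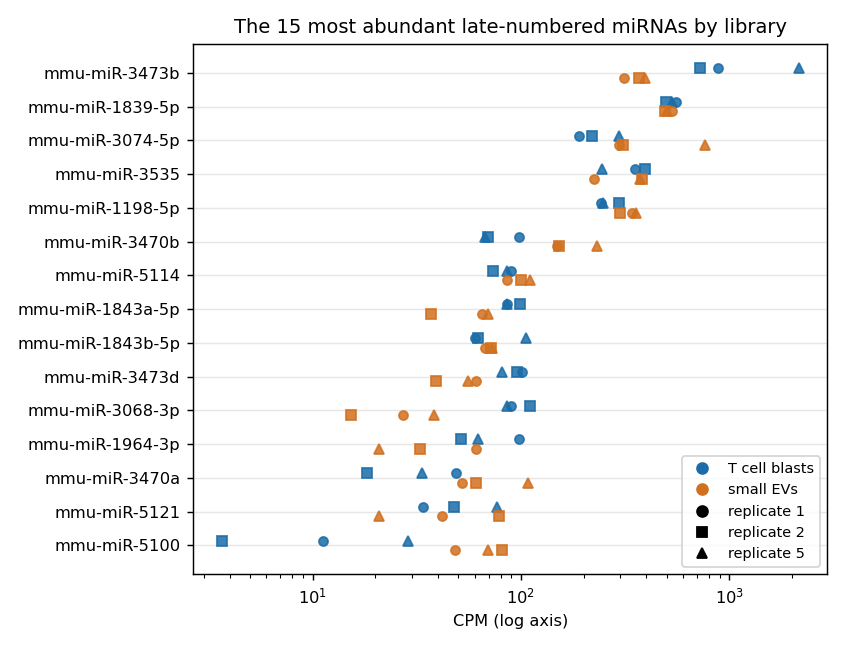
CPM (horizontal axis, log scale) of the 15 late-numbered miRNAs with the highest mean, one row each, with 1 point per library (blue for T cell blasts, orange for small EVs, marker shape for replicates 1, 2 and 5). mmu-miR-3473b and mmu-miR-3068-3p lie lower in EVs and mmu-miR-5100 and mmu-miR-3470b higher, while the 6 points of mmu-miR-1839-5p lie between 491 and 554 CPM.

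The 13 members in annotated snoRNA or scaRNA genes held 33.0% of all member reads, with 1016 of their 2307 reads from mmu-miR-1839-5p. One was called higher (mmu-miR-6516-3p), 2 were called lower (mmu-miR-3068-3p and mmu-miR-1843a-5p) and 10 did not pass (7.69% and 15.4%, beside 21.1% and 12.4% of all listed miRNAs), with a median log2 difference of -0.05. The rarest of them had few reads in either group. mmu-miR-1291, in Snora34, had 5 reads in blasts and 6 in EVs, the latter all in EVs 1. mmu-miR-3069-3p, in Scarna13, had 3 and 3 reads, and mmu-miR-3084-3p, in Snora19, had 2 and 4 reads. Of the 3 members on the chosen list of snoRNA or scaRNA miRNAs (both arms of mmu-miR-1839, and mmu-miR-1291), none passed. No sequence was matched for mmu-miR-1839-3p.

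The 3p arms at intron ends were detected at a few reads each. The 16 members at a splice acceptor had 223 reads in all, 82 in blasts and 141 in EVs, and 1 was called higher (mmu-miR-6988-3p, with no read in blasts and 2, 1 and 1 in EVs, so that the filter fixed its direction), none lower. The shares called were thus 6.25% and 0%, beside 21.1% and 12.4% of all listed miRNAs. mmu-miR-1981-3p, from the mitochondrial amidoxime reductase gene Marc2, was the most abundant at 41.2, 25.7 and 19.1 CPM in blasts and 29.3, 43.7 and 38.2 CPM in EVs. mmu-miR-6989-3p, from the kinase gene Map4k2, had 5, 5 and 4 reads in both blasts and EVs. Since 1 read is worth fewer CPM in the EV libraries, its mean was 18.7 ± 0.4 against 11.8 ± 1.9 CPM (SD, n = 3), with no overlap, and its log2 difference of -0.64 did not pass (limma adjusted p = 0.363). mmu-miR-7015-3p had 14 reads in blasts and 22 in EVs (log2 difference -0.02). The series of late mirtron numbers (miR-6769b and members numbered 6899 to 7068), of which 11 members also appear above, held 16 members and 136 reads, with 1 higher (mmu-miR-6988-3p), 1 lower (mmu-miR-6769b-3p, 1 read in each blast library and none in EVs) and 14 that did not pass, or 6.25% each way. The direction of both calls was fixed by the filter.

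The 10 members whose number is shared with a human miRNA included 3 that were higher (mmu-miR-3074-5p, mmu-miR-5100 and mmu-miR-6516-3p), 1 that was lower (mmu-miR-6769b-3p) and 6 that did not pass. These shares of 30% and 10% stand beside 21.1% and 12.4% of all listed miRNAs. mmu-miR-1306-5p, encoded in an exon of the Microprocessor gene Dgcr8, had 3, 2 and 2 reads in blasts and 3, 4 and 5 reads in EVs. mmu-miR-1199-5p had 12 reads in blasts, 7 of them in blasts 5, and 14 in EVs. mmu-miR-1249-3p had 2 and 4 reads. The 2 members opposite miR-24 hairpins were mmu-miR-3074-5p and mmu-miR-3074-1-3p, which had 4 reads in each group.

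Median levels were 6.17 CPM for the 38 numbered 1187 to 1983, 4.12 CPM for the 25 numbered 3057 to 3547, 3.43 CPM for the 9 numbered 5100 to 5624, 2.74 CPM for the 19 from mmu-miR-6516 to mmu-miR-7068 and 3.60 CPM for the 20 numbered 7237 to 9769. Calls higher and lower numbered 6 and 1, 6 and 4, 2 and 1, 2 and 2, and 3 and 1 in these bands. As shares these were 15.8% and 2.63%, 24% and 16%, 22.2% and 11.1%, 10.5% and 10.5%, and 15% and 5%, beside 21.1% and 12.4% of all listed miRNAs. At the edge of the rule, mmu-miR-877-3p, mmu-miR-877-5p and mmu-miR-935 measured 31.3, 39.9 and 3.19 CPM in blasts and 16.7, 17.8 and 1.43 CPM in EVs, and the first members, mmu-miR-1187, mmu-miR-1191a and mmu-miR-1191b-5p, measured 1.25, 4.41 and 4.07 CPM in blasts and 4.90, 13.5 and 5.57 CPM in EVs.

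Most calls beyond those described rested on few reads. Of the 28 called members, 15 had under 20 reads in all, 11 of them higher and 4 lower. Of the 19 called higher, 6 had no read in blasts, and of the 9 called lower, 3 had no read in EVs. For these the filter on 3 libraries alone requires a read in every library of the other group, so their separation is no result about them. The 6 were mmu-miR-3062-5p, mmu-miR-5120 (4, 4 and 1 reads in EVs; intron of Pax5, a B cell transcription factor), mmu-miR-7682-3p (2, 2 and 1), mmu-miR-1195 (2, 1 and 1), mmu-miR-6988-3p and mmu-miR-1943-3p (1, 1 and 1). The 3 were mmu-miR-5128 (3, 1 and 1 reads in blasts), mmu-miR-7667-3p and mmu-miR-6769b-3p (1, 1 and 1 each). Among the 102 members with reads in both groups, 13 were higher and 6 lower (12.7% and 5.88%). Over all listed miRNAs, which also count rows absent from a group, the shares were 21.1% and 12.4%. With more reads, mmu-miR-1948-3p, a member with 5 reads in blasts and 24 in EVs, measured 11.2, 3.67 and 4.79 CPM in blasts and 18.9, 19.7 and 20.8 CPM in EVs (log2 difference 1.59, SE 0.54, limma adjusted p = 0.080). It did not pass without EVs 2 (1.59, adjusted p = 0.207) or with DESeq2 (adjusted p = 0.310).

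Few members came as arm pairs. Both arms were listed for 13 member precursors, which account for 23.4% of the members, against 103 precursors and 60.9% of rows numbered below 1000. The names of 30 members (27.0%) carried no arm, against 13 lower-numbered rows (3.85%), and 50 members were 3p and 31 were 5p. The 5p arm had more reads in 9 of 13 pairs, the 3p arm in 3 (mmu-miR-1948, mmu-miR-1981 and mmu-miR-3068), and the arms of mmu-miR-3091 were equal at 4 reads. The median ratio of the major to the minor arm was 3.67 in members and 16.2 in lower-numbered pairs. Each listed arm needs a read in at least 3 libraries, so a precursor with few reads cannot show a large ratio. Members had a median of 8 reads per row, against 81.5 for lower-numbered rows. Neither the ratios nor the shares in pairs were compared at equal depth. mmu-miR-1198 was the most one-sided, with 601 reads of 5p and 3 of 3p, followed by mmu-miR-1839 with 1016 and 26 reads and mmu-miR-1943 with 66 and 3 reads. mmu-miR-1981 was close to even, with 64 and 67 reads.

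Arm ratios were then compared between cells and vesicles. For mmu-miR-1839 the 5p share of reads was 97.5% in both groups, and for mmu-miR-1198 it was 99.5% in both. The log2 ratio of 5p to 3p did not overlap between groups in 2 of 13 pairs, mmu-miR-1843a and mmu-miR-1943, beside 28 of 103 lower-numbered pairs, and in 4 without blasts 5. For mmu-miR-1843a it was 2.14, 2.67 and 1.34 in blasts and 1.02, 0.88 and 0.72 in EVs, so that the 5p share of its reads was 81.0% in blasts and 65.4% in EVs (exact permutation test, p = 0.1, Benjamini-Hochberg adjusted p over the 13 pairs 0.65). For mmu-miR-1943 it was 5.25 ± 0.54 in blasts and 3.20 ± 0.20 in EVs (SD, n = 3). Its 3p arm had no read in blasts and 1 read in each EV library, the only way it could pass the filter on 3 libraries, so that this separation is no result about arm use. With 3 libraries per group no pair could go below an exact p of 0.1, so that no difference in arm use could pass by this test. The mmu-miR-1843a and mmu-miR-1843b arms share bases, and reads may pass between them.

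**Figure D5:**
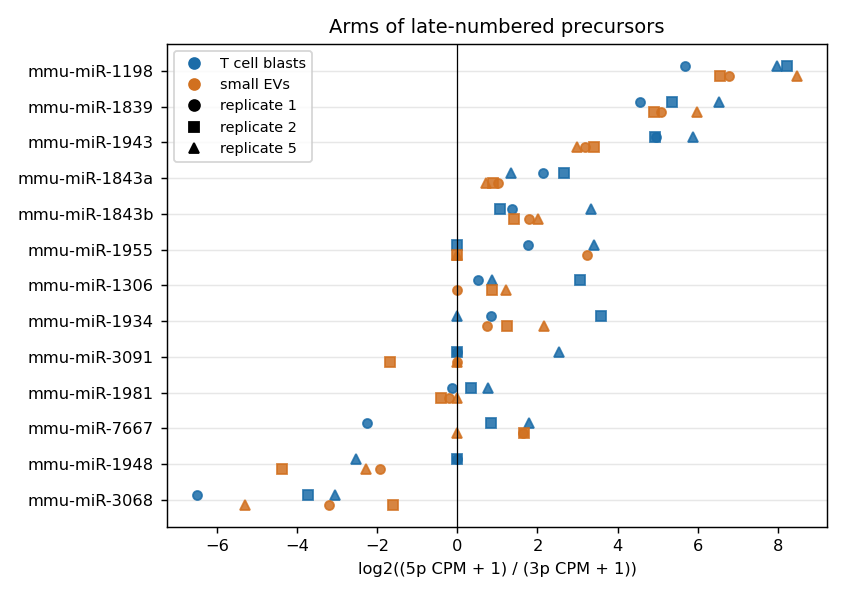
Log2 ratio of 5p to 3p CPM, each with 1 CPM added (horizontal axis), for the 13 late-numbered precursors with both arms listed, 1 point per library (blue for T cell blasts, orange for small EVs, marker shape for replicate). Points right of 0 have more 5p. Blue and orange points do not overlap for mmu-miR-1843a and mmu-miR-1943, whose 3p arm was listed only through its 3 reads in EVs.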

How the data were processed

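Small RNA libraries (NEBNext, 75 bp single-end reads) of 3 T cell blast and 3 small EV samples were analysed. The authors trimmed reads with Cutadapt, discarded those under 20 bp, aligned the rest to mature miRNAs of miRBase 21 (BWA in the submitters' processing notes, beside CASAVA 1.8.2 and RSEM 1.17), kept miRNAs at 1 CPM or more in at least 3 libraries, and scaled counts by TMM in edgeR (logratio trim 0.4). The deposited signal is thus a normalized CPM. Whole reads were recovered from its steps (100% of values within 0.05 of a whole read). No column was left unmapped.

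log2(CPM + 1) was tested with limma 3.58.1 in R 4.3.3 over all rows, after a check on simulated data. edgeR 4.0.16 and DESeq2 1.42.0 on recovered reads, other pseudocounts, filters, scalings, left-out libraries and a replicate block were alternatives. Deviations from the group means of same-numbered samples correlated at r = 0.15, 0.16 and 0.34 over 284 miRNAs for numbers 1, 2 and 5. Unmatched numbers ranged from -0.24 to 0.17, so that only number 5 stood apart. Every matched r passed 0.1, but so did blasts 2 with EVs 1 (0.17) and blasts 1 with EVs 2 (0.11). These values thus do not show that numbers 1 and 2 mark pairs. The design describes 3 biological replicates. The main tests were unpaired, and the replicate block served only as an alternative. Named members were the 15 most abundant, the largest called differences at 20 CPM or more without overlap, arm pairs, members absent from one group, members at the edge of the rule, and lists. The lists were numbers shared with human miRNAs, late mirtron numbers, antisense to miR-24, B1 repeats, snoRNAs or scaRNAs, number bands and cell markers. Members given beyond this rule were chosen after their values were seen. Members and lists were chosen with earlier results of these data known. Genome context came from GENCODE on the same build as the RefSeq sequences.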

Additional observations from a re-analysis of the deposited data

How the results depend on the processing

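With each of the 6 libraries left out, members higher in EVs ranged from 11 to 22 and members lower from 6 to 13. Over all 451 listed miRNAs the ranges were 77 to 103 and 46 to 67. With a mean of at least 10 CPM, 7 of 35 members tested were higher (20%), beside 61 of all 284 miRNAs tested. The share thus did not fall with this filter. Higher calls fell from 19 to 12 with edgeR, 9 with edgeR and the replicate block, 6 with DESeq2 (47 members had no adjusted p) and 7 at an adjusted p of 0.05. Over all listed miRNAs they fell from 95 to 82, 80, 64 and 58 in that order. Lower calls fell from 9 to 4 with DESeq2, and from 56 to 41 over all listed miRNAs. With the replicate block in limma, 21 members were higher and 10 lower (106 and 73 of all listed). The block added mmu-miR-1964-3p, mmu-miR-3060-3p and mmu-miR-8105 and lost no call. The EV minus blast share was 0.067 percentage points without mmu-miR-3473b, against -0.0099 with it, and ranged from -0.044 to 0.020 with libraries left out. All of these count mmu-miR-5099 in the total, and leaving it out raised the blast shares more than the EV shares. The difference in members detected was 2.54 at equal depth. Non-overlapping arm pairs ranged from 2 to 4 with libraries left out, with 4 without blasts 5, and numbered 3 with a pseudocount of 5.

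When every library was made to sum to 1000000, the median log2 difference over all listed miRNAs went from 0.02 to 0.19, which turned mmu-miR-1839-5p to 0.12, mmu-miR-3535 to 0.15 and mmu-miR-1843b-5p to 0.12. Rescaling to miRNAs under 5% of a library moved that median to -0.14, and all listed calls went from 95 higher and 56 lower to 81 and 78. None of the differences that changed sign had been called. With libraries left out, mmu-miR-3535 ranged from -0.22 to 0.23, mmu-miR-1843b-5p from -0.20 to 0.21 and mmu-miR-5121 from -0.73 to 0.20. Apart from left-out libraries and rescaling, whose construction shifts the values, the cause of each change was not tested. Depth limits the 60 members with under 10 reads, for which 1 read can decide a value.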
